A study of Mus musculus with 9 samples.

Results

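The genes described here are the G1 cyclins Ccnd1, Ccnd2 and Ccnd3, the cyclin-dependent kinases Cdk4, Cdk6 and Cdk2, the pocket proteins Rb1, Rbl1 and Rbl2, and Myc. They were taken from the deposited gene table by symbol, and they make up 10 of its 43346 genes. RNA-Seq had been done on lung fibroblasts of 4 aged sham and 5 aged bleo mice, all Col1a1-GFP transgenic males on an FVB background that were labelled as 72 weeks old. Aged sham mice had received saline and aged bleo mice 1 intratracheal dose of bleomycin, which injures the lung and leads to scarring, and all lungs were taken on day 30. The cells were sorted as GFP+ and negative for CD45, CD31 and EpCAM, so the reporter, which is driven by a collagen I promoter, decided which cells were collected in both groups. The study counts its data points as independent mice, so each library was treated as 1 mouse.

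G1 is the phase in which a cell decides whether to divide. Growth signals raise the D cyclins, which bind and activate CDK4 and CDK6, and these kinases phosphorylate RB1 and its relatives p107 (Rbl1) and p130 (Rbl2), so that E2F transcription factors are released and the genes of S phase are switched on. MYC is a transcription factor that is induced early after growth stimulation and drives cell growth, and p130 is best known from resting cells, where it holds E2F target genes silent.

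The libraries held 49921946 to 68260600 counted reads each, and the members had between 263 and 12949 reads per library. A count of 0 would allow up to 3 reads, or 0.0409 to 0.0605 CPM (reads per library, TMM-scaled to a common size). The 8 fibroblast identity genes summed to 24845 to 30577 CPM in aged sham and 54995 to 72429 CPM in aged bleo. Among them Col1a1, Col1a2, Col3a1 and Pdgfrb were higher in aged bleo. Dcn and Tcf21 were lower, at 8122 against 2795 CPM and 106 against 49.6 CPM. Epcam, the epithelial surface marker that the sort selected against, was at 0.59 ± 0.14 CPM (SD, n = 4) and 0.67 ± 0.32 CPM (SD, n = 5). The 7 epithelial genes summed to 10.1 to 81.3 CPM in aged sham and 16.8 to 53.3 CPM in aged bleo. Only Krt8 of them was higher in aged bleo and none was lower, and Sftpc reached 57.9 CPM in aged sham 3. Transcripts of white blood cells remained in spite of the sort. The 7 pan-leukocyte genes summed to 148 to 527 CPM in aged sham and 151 to 805 CPM in aged bleo, with the highest sums in aged sham 4 and aged bleo 4. Macrophage genes (7 genes, 4 of them higher in aged bleo and none lower) summed to 138 to 272 CPM and 450 to 1425 CPM, in the order 1, 3, 2, 5, 4 among the aged bleo libraries. Aged sham 1 stood apart from the other aged sham libraries for several of the genes below. In such bulk libraries, fewer cells of a type and less RNA per cell cannot be told apart.

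After bleomycin, 4 of the 10 genes rose and 1 fell. Ccnd1, Cdk6, Rbl1 and Ccnd2 were higher in aged bleo by 3.68-, 2.46-, 1.81- and 1.61-fold, and Myc was lower by 2.99-fold. Rbl2 was lower and Cdk4 and Cdk2 were higher by less than the fold threshold, and the differences of Ccnd3 and Rb1 did not pass the test. All 10 genes passed the filter on low counts. They were tested among 16877 genes with edgeR's quasi-likelihood test, with Benjamini-Hochberg adjusted p-values (FDR), and a gene was called when its FDR was under 0.10 and its fold change over 1.5. The 5 called genes were 50% of the members, beside 23.8% of all tested genes. By direction, 4 members were called higher and 1 lower, where 12.3% of all genes were called higher and 11.5% lower. Without the fold threshold, 8 members passed, beside 44.8% of all genes. Among these 8, Cdk2 was no longer under an FDR of 0.10 in 7 of 9 fits that left out 1 library (FDR 0.104 to 0.197), namely those without aged sham 2, 3 or 4 or aged bleo 1, 3, 4 or 5, and Cdk4 in 2 of 9, without aged sham 3 (FDR 0.111) or aged sham 4 (FDR 0.104). Every aged bleo library lay above every aged sham library for 2 members, and below for another 2, beside 16.1% and 16.1% of all genes. The median log2 fold change was 0.45 over the members and 0.01 over all tested genes. The study names Ccnd1 among genes with binding sites for the factor NFATc1 that were higher in aged lung fibroblasts. Its fold changes were set against uninjured young fibroblasts, which are not among these libraries.

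**Figure D1:**
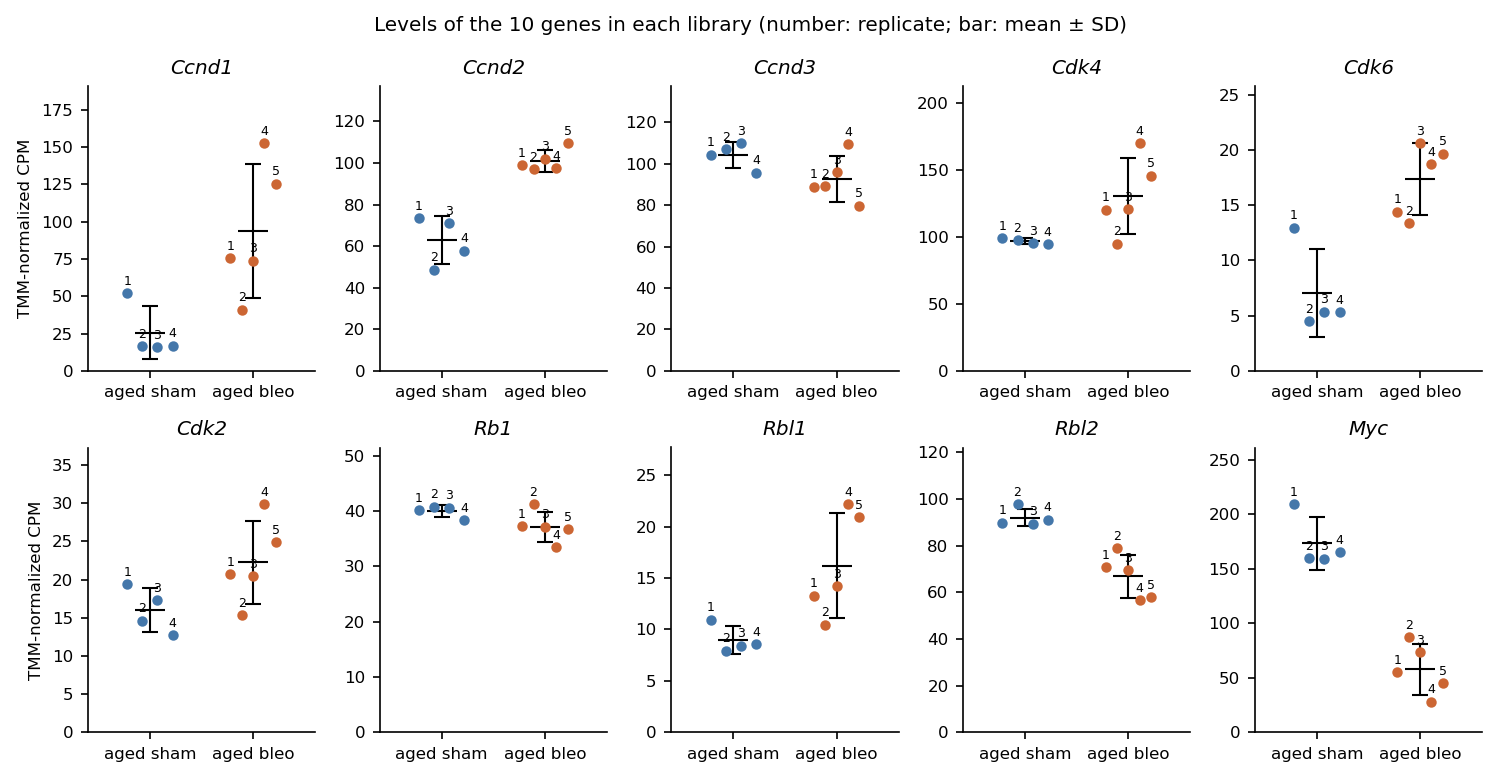
TMM-normalized CPM of each of the 10 genes (vertical axes, from 0) in the 4 aged sham and 5 aged bleo libraries, with points numbered by replicate and bars for mean ± SD. All aged bleo points lie above all aged sham points for Ccnd2 and Cdk6 and below them for Rbl2 and Myc, and aged sham 1 lies above the other aged sham libraries for Ccnd1, Cdk6 and Myc.

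The short promoter stretches shown next hold the binding letters of factors that act with these genes. E2F factors are what the pocket proteins hold in check, and the E-box CACGTG is bound by MYC with its partner MAX. RefSeq promoter windows (GRCm38.p6, 250 bases before to 50 bases after each start, 32851 windows) were found for 6 of the 10 genes, and both strands were searched. The E2F letters TTTCCCGC, TTTGGCGC, TTTCGCGC or TTTGCCGC were in 2.26% of all windows and, among the 6 genes, in those of Rbl1 and Cdk2. The letters CACGTG were in 7.15% of all windows and, among the 6 genes, in those of Cdk6 and Cdk4. Neither motif overlapped the other. The stretches are shown 5′ to 3′ on the gene's strand, with the matched letters in capitals.
Rbl1, chr2:157204535-157204577, minus strand, E2F: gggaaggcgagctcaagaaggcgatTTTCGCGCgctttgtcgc
Cdk2, chr10:128705159-128705216, minus strand, E2F on the opposite strand: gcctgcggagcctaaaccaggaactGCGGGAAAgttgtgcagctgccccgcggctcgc
Cdk6, chr5:3343648-3343703, plus strand, E-box: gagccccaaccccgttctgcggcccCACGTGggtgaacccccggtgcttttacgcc
Cdk4, chr10:127063338-127063534, plus strand, E-boxes: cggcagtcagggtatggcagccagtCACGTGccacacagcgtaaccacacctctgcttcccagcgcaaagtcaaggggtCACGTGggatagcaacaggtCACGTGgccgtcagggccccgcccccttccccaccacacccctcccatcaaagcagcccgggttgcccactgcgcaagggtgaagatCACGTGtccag
The match began 18 bases before the start in Rbl1, 140 before in Cdk2 and 220 before in Cdk6. Cdk4 held 4 matches, between 172 and 11 bases before its start, and 8 of the 32851 windows held 4 or more. These matches describe letters and were not tested for binding.

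Among the D cyclins, Ccnd1 (ENSMUSG00000070348, GRCm38 chr7:144929931-144939869, minus strand) changed most. This cyclin is the one best known to follow growth factor signals. Its levels in aged sham 1 to 4 were 52.2, 16.7, 16.1 and 17.0 CPM. In aged bleo 1 to 5 they were 75.6, 41.1, 73.9, 153 and 126 CPM. Aged sham 1 was 3.15 times the mean of the other aged sham libraries (16.6 CPM) and exceeded aged bleo 2, and this was the one overlap between the groups. The means were 25.5 ± 17.8 CPM (SD, n = 4) and 93.8 ± 44.7 CPM (SD, n = 5), with a log2 fold change of 1.88 (standard error, SE, 0.49, FDR 0.0170). Without aged sham 1, the log2 fold change was 2.50 (FDR 0.00449). A stretch of 818 bases is shared with Oraov1 on the opposite strand, which was at 20.2 CPM in aged sham against 32.7 CPM in aged bleo, and the library kit does not mark strand.

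Ccnd2 (ENSMUSG00000000184, chr6:127125779-127151048, minus strand) encodes a close relative of cyclin D1 and rose less but more evenly. Aged sham 1 to 4 had 73.5, 48.8, 70.9 and 57.9 CPM. Aged bleo 1 to 5 had 98.9, 97.1, 102, 97.5 and 110 CPM. Every aged bleo library lay above every aged sham library, and the SD within aged bleo was 5.16 CPM around a mean of 101 CPM. Ccnd2 had a log2 fold change of 0.69 (SE 0.12, FDR 0.00310). Without aged sham 2, which was the lowest, it was 0.58 and no longer past the fold threshold, with an FDR of 0.00497. The locus shares 1660 bases with 9330179D12Rik on the opposite strand, at 0.83 and 0.41 CPM.

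Ccnd3 (ENSMUSG00000034165, chr17:47505051-47599691, plus strand), the D cyclin known for its part in lymphocytes and in many differentiating cells, had 104, 107, 110 and 95.6 CPM in aged sham 1 to 4. It had 88.9, 89.0, 95.8, 109 and 79.8 CPM in aged bleo 1 to 5. The groups overlapped, with aged bleo 4 near the top of the aged sham range and aged bleo 5 the lowest of all, and with a log2 fold change of -0.17 (SE 0.09, FDR 0.184) the gene did not pass the test. Bysl, which shares 361 bases on the opposite strand, was at 29.5 and 32.7 CPM.

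Of the kinases, Cdk6 (ENSMUSG00000040274, chr5:3343893-3523218, plus strand) rose. It shares the D cyclins with Cdk4. Aged sham 1 to 4 had 13.0, 4.50, 5.36 and 5.34 CPM, and aged bleo 1 to 5 had 14.4, 13.4, 20.6, 18.7 and 19.6 CPM. No aged bleo library fell among those of aged sham, though aged sham 1, at 2.56 times the mean of the others, came close to aged bleo 2. With means of 7.04 ± 3.96 CPM (SD, n = 4) and 17.3 ± 3.24 CPM (SD, n = 5), the log2 fold change was 1.30 (SE 0.32, FDR 0.0132), and it was 1.77 without aged sham 1.

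Cdk4 (ENSMUSG00000006728, chr10:127063534-127067920, plus strand) lay within 94.5 to 99.4 CPM in aged sham, at 99.4, 97.6, 95.4 and 94.5 CPM. Aged bleo 1 to 5 spread over 120, 95.1, 121, 170 and 146 CPM. Aged bleo 2 was inside the aged sham range and the other 4 aged bleo libraries were above it. The log2 fold change was 0.43 (SE 0.15, FDR 0.0477), under the fold threshold. A stretch of 604 bases is shared with Tspan31 on the other strand, which was at 72.9 and 81.9 CPM.

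Cdk2 (ENSMUSG00000025358, chr10:128697939-128705051, minus strand), the kinase that works with cyclins E and A at the start of S phase, showed a similar order of libraries. Its values were 19.4, 14.6, 17.3 and 12.7 CPM in aged sham 1 to 4. In aged bleo 1 to 5 they were 20.7, 15.4, 20.5, 29.8 and 24.8 CPM. Aged bleo 2 again lay among the aged sham libraries, and aged bleo 4 was the highest. The log2 fold change of 0.47 (SE 0.19, FDR 0.0831) was under the fold threshold. With aged sham 4 and aged bleo 4, the libraries richest in leukocyte transcripts, both left out, the log2 fold changes of Cdk4 and Cdk2 were 0.29 (FDR 0.153) and 0.23 (FDR 0.332).

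The 3 pocket protein genes went different ways. Rb1 (ENSMUSG00000022105, chr14:73183673-73325822, minus strand), the retinoblastoma gene, was at 40.2, 40.8, 40.6 and 38.4 CPM in aged sham and at 37.3, 41.2, 37.2, 33.5 and 36.8 CPM in aged bleo. The highest value of all was that of aged bleo 2, while the other 4 aged bleo libraries were below every aged sham library. At a log2 fold change of -0.11 (SE 0.07, FDR 0.251), Rb1 did not pass the test. Rcbtb2 on the opposite strand shares 24171 bases of the Rb1 locus, introns included, and was at 48.4 and 47.3 CPM, and Lpar6, inside the locus, was at 6.72 and 7.91 CPM.

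Rbl1 (ENSMUSG00000027641, chr2:157145893-157204534, minus strand), whose product p107 is itself made under E2F control in dividing cells, rose. Aged sham 1 to 4 had 11.0, 7.96, 8.41 and 8.57 CPM, and aged bleo 1 to 5 had 13.3, 10.5, 14.2, 22.1 and 20.9 CPM. The only overlap was between aged sham 1 and aged bleo 2, and aged bleo 4 and 5 stood well above the other aged bleo libraries. Rbl1 had a log2 fold change of 0.85 (SE 0.23, FDR 0.0184).

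Rbl2 (ENSMUSG00000031666, chr8:91070057-91123844, plus strand) had 89.9, 97.6, 89.4 and 91.1 CPM in aged sham 1 to 4. Aged bleo 1 to 5 had 70.8, 78.9, 69.4, 56.7 and 58.0 CPM. Every aged bleo library was below every aged sham library, with aged bleo 4 and 5 the lowest. The log2 fold change was -0.46 (SE 0.10, FDR 0.00866), past the FDR threshold and not the fold threshold. Aktip, which shares 11804 bases with Rbl2 on the opposite strand, was at 38.5 and 30.6 CPM with a log2 fold change of -0.33 (FDR 0.0339).

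Myc (ENSMUSG00000022346, chr15:61985341-61990374, plus strand) was the member that fell. Aged sham 1 to 4 had 209, 160, 159 and 165 CPM. Aged bleo 1 to 5 had 55.1, 87.7, 73.4, 28.2 and 45.5 CPM. Here too the groups did not overlap, and the highest aged bleo value was well under the lowest of aged sham. The means were 173 ± 24.0 CPM (SD, n = 4) and 58.0 ± 23.3 CPM (SD, n = 5), with a log2 fold change of -1.58 (SE 0.28, FDR 0.00360). Aged sham 1 was the highest, and without it the log2 fold change was -1.48 (FDR 0.0108).

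**Figure D2:**
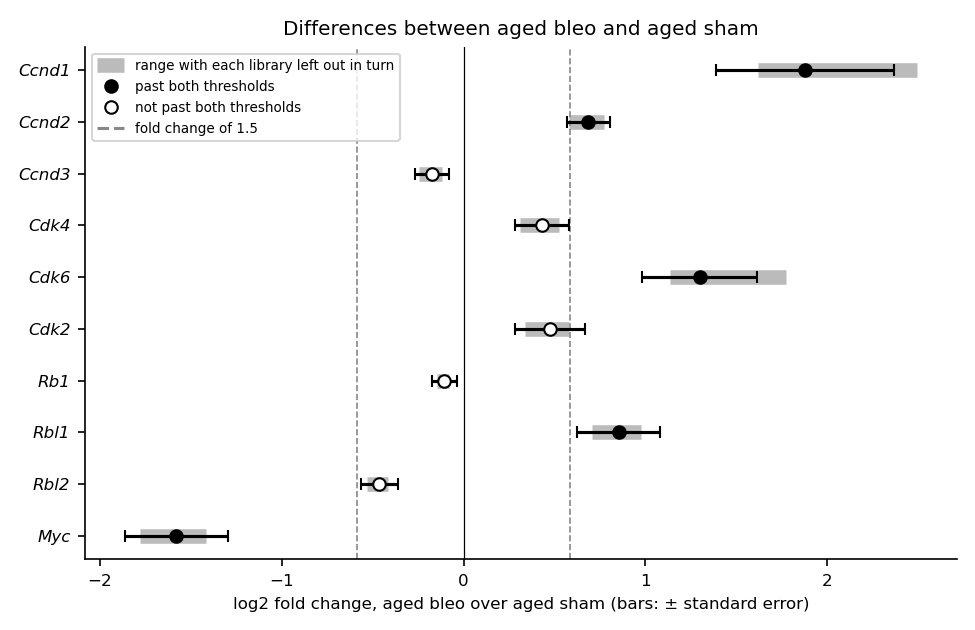
Log2 fold change of aged bleo over aged sham (horizontal axis) for each gene, with bars for ± standard error, filled points for genes past both thresholds, and grey bands for the range when each library was left out in turn. Myc is far to the left at -1.58, Ccnd1 far to the right at 1.88 with the widest band (1.62 to 2.50), and the band of Ccnd2 (0.58 to 0.77) reaches the line for a fold change of 1.5.

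A number that closes each library name was 4 throughout aged sham. In aged bleo it was 5 in replicates 1 to 3, 4 in replicate 4 and 6 in replicate 5. Its meaning is not given, and no ending held several libraries of both groups. With this ending as a term in the model, so that the difference rests on aged bleo 4, 8 members were called (6 higher and 2 lower). The log2 fold changes were then 2.58 for Ccnd1, 1.30 for Rbl1, 0.90 for Cdk2, 0.82 for Cdk4, -0.70 for Rbl2 and -2.62 for Myc. That of Ccnd3 turned to 0.07 (FDR 0.567). Without the leukocyte-rich aged sham 4 and aged bleo 4, the same number of members as with all libraries, 5, were called, with log2 fold changes of 1.46 for Ccnd1 (FDR 0.0716), 0.65 for Ccnd2 (FDR 0.0160), 1.14 for Cdk6 (FDR 0.0561), 0.68 for Rbl1 (FDR 0.0714) and -1.45 for Myc (FDR 0.00442). Ccnd3 then had a log2 fold change of -0.30 (FDR 0.0266), under the fold threshold.

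Per length, in FPKM as deposited, Myc led the 10 genes in aged sham and not in aged bleo. In aged sham the order was Myc at 26.3 ± 3.58 FPKM (SD, n = 4), Cdk4 at 12.5 ± 0.41, Rbl2 at 5.54 ± 0.28, Ccnd3 at 4.99 ± 0.37, Ccnd2 at 4.62 ± 0.86, then Rb1, Ccnd1 and Cdk2 at 2.79, 2.79 and 2.76, and Cdk6 and Rbl1 at 0.79 and 0.63. The ranges over libraries did not separate Ccnd3 from Ccnd2, Rb1, Ccnd1 and Cdk2 from each other, or Cdk6 from Rbl1. The other genes next to each other in this order were apart. Through aged sham 1, the range of Ccnd1 (1.78 to 5.70 FPKM) also reached those of Ccnd2, Ccnd3 and Rbl2, higher in the order. In aged bleo the order was Cdk4 at 17.4 ± 4.28 FPKM (SD, n = 5), Ccnd1 at 10.6 ± 5.34, Myc at 8.93 ± 3.39, Ccnd2 at 7.62 ± 0.43, Ccnd3 at 4.55 ± 0.63, Rbl2 at 4.11 ± 0.49, Cdk2 at 3.95 ± 1.07, Rb1 at 2.66 ± 0.14, Cdk6 at 2.00 ± 0.38 and Rbl1 at 1.17 ± 0.40. Here neighbours were apart only between Ccnd2 and Ccnd3 and between Rb1 and Cdk6. The lowest values of Ccnd1 and Myc (4.50 and 4.58 FPKM) also lay within the range of Ccnd3 (3.93 to 5.60 FPKM).

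The make-up of the D cyclins differed between the groups. Ccnd1 made up 21.1 ± 9.64% (SD, n = 4) of their summed FPKM in aged sham and 44.2 ± 11.6% (SD, n = 5) in aged bleo, with overlap, since aged sham 1 was at 35.4% and aged bleo 2 at 28.3%. Ccnd3 made up 41.3 ± 7.41% and 20.8 ± 4.55%, and its lowest aged sham share (31.0%) was above its highest aged bleo share (26.8%). The share of Ccnd2 was 37.5% and 35.0%. The sum of the 3 genes was 12.4 ± 2.60 FPKM in aged sham and 22.8 ± 6.00 FPKM in aged bleo, so the lower share of Ccnd3 went with a larger sum and not with a called loss of Ccnd3 itself.

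Among the kinases Cdk4 held most of the FPKM in both groups, at 78.1 ± 3.89% in aged sham and 74.4 ± 0.97% in aged bleo. Cdk6 was at 4.82 ± 2.31% and 8.73 ± 1.39%, and aged sham 1, at 8.25%, lay inside the aged bleo range. The ratio of Cdk4 to Cdk6 was 18.6 ± 6.89 in aged sham and 8.71 ± 1.42 in aged bleo.

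In the pocket proteins, Rbl2 held a smaller share in aged bleo and Rbl1 a larger one. Rbl2 made up 61.8 ± 1.40% in aged sham and 51.7 ± 4.80% in aged bleo, and Rbl1 7.01 ± 1.08% and 14.8 ± 5.28%. Neither gene's shares overlapped between the groups, though Rbl1 was close, at 8.53% in aged sham 1 and 8.78% in aged bleo 2. The ratio of Rbl2 to Rbl1 was 7.06, 10.6, 9.15 and 9.15 in aged sham 1 to 4 and 4.58, 6.48, 4.21, 2.20 and 2.38 in aged bleo 1 to 5. Rb1 kept 31.1 ± 0.74% and 33.4 ± 0.91%, and the sum of the 3 genes was 8.96 ± 0.35 and 7.94 ± 0.27 FPKM. These shares are given as descriptions without a test.

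**Figure D3:**
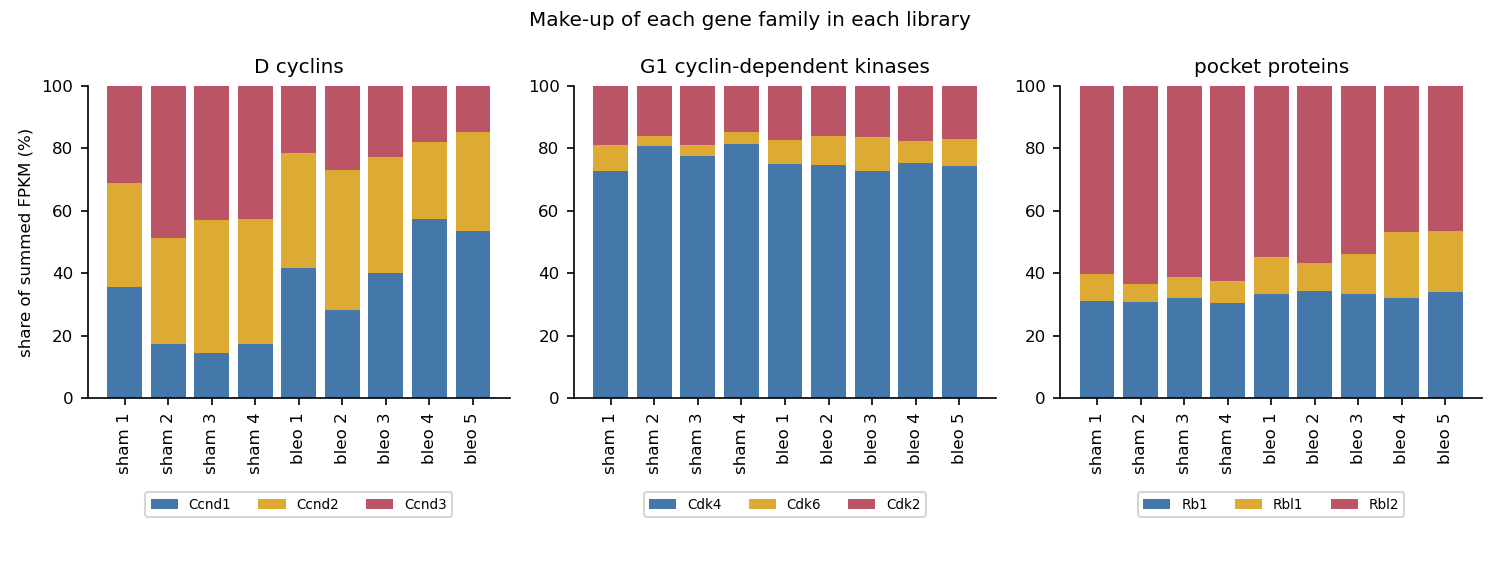
Share of the summed FPKM (vertical axes, percent) taken by each gene of the D cyclins, the G1 kinases and the pocket proteins in the 9 libraries (horizontal axes). The Ccnd3 share is lower in all aged bleo libraries (14.9 to 26.8%) than in all aged sham libraries (31.0 to 48.6%), the Rbl2 share likewise, and Cdk4 holds 72.8 to 81.4% of the kinases throughout.

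The aged bleo libraries differed among themselves in a repeated order. From the lowest to the highest, Ccnd1 and Cdk2 ran aged bleo 2, 3, 1, 5, 4, and Cdk4 and Rbl1 ran 2, 1, 3, 5, 4. The order for Rb1 and Rbl2 was 4, 5, 3, 1, 2, and for Myc 4, 5, 1, 3, 2. Thus aged bleo 4 and 5 had the highest Ccnd1, Cdk4, Cdk2 and Rbl1 and the lowest Rb1, Rbl2 and Myc, and aged bleo 2 the reverse. Ccnd2 and Cdk6 did not keep this order above aged bleo 2, and Ccnd3 did not follow it. The summed CPM of 14 S phase genes had the same ends, at 202.5 in aged bleo 2, 265 in aged bleo 1, 283 in aged bleo 3, 471 in aged bleo 5 and 542 in aged bleo 4. Macrophage genes were also highest in aged bleo 4 and 5, and their part in this order was not tested.

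**Figure D4:**
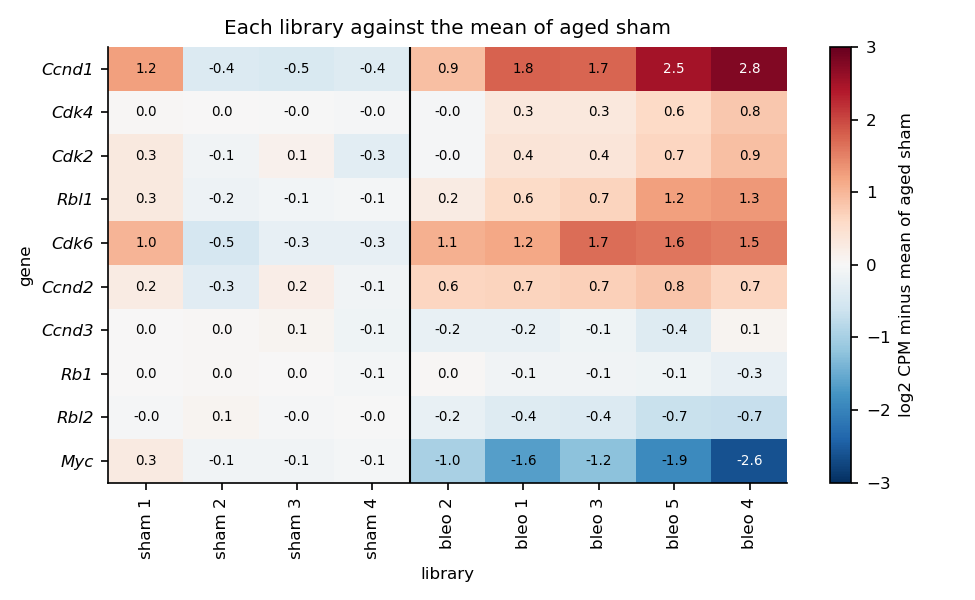
Log2 CPM of each gene (rows) in each library (columns) minus the aged sham mean. The aged bleo libraries are ordered 2, 1, 3, 5, 4, as Cdk4 and Rbl1 rise in these same data. Differences are larger in aged bleo 4 than in aged bleo 2 for Ccnd1 (0.9 to 2.8) and Myc (-1.0 to -2.6), with a step back at aged bleo 3. Ccnd3 and Rb1 stay within 0.4 of the aged sham mean.

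By root mean square difference of centred log2 CPM over the 9 libraries, the member pair nearest to each other was Cdk4 and Cdk2 (0.15), followed by Ccnd3 and Rb1 (0.17) and Rb1 and Rbl2 (0.20). The measure is not scaled to each gene's spread, so genes that change little come out near each other whatever their order of libraries. Ccnd3 and Rb1 both changed little. From lowest to highest, their aged bleo libraries ran 5, 1, 2, 3, 4 for Ccnd3 and 4, 5, 3, 1, 2 for Rb1. Outside the members, the genes nearest to Ccnd1 were Ankle1 (0.14), Vash2 (0.18) and Kif20b (0.20), and among those nearest to Rbl1 were Mettl21b (0.08) and Apex1 (0.09). Nearest to Ccnd2 were Pigw, Gm10602 and Dhcr7 (0.08 to 0.10), and nearest to Cdk6 were Gm13966, FMN1 and Adamts14 (0.17 to 0.19). Myc was followed most closely by Gm15675, Gm10605 and Slc4a4 (0.13 to 0.14). Slc4a4, a bicarbonate transporter, was at 76.2 ± 9.42 CPM in aged sham against 26.7 ± 10.7 CPM in aged bleo. These likenesses rest on 9 libraries that share 1 treatment contrast.

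The other genes of the pathway were described by lists of 79 genes, of which 77 were tested, 25 rose and 2 fell, with a median log2 fold change of 0.34. That is 27 called genes of 77, beside the 23.8% over all genes. These lists, like the members, were drawn up with results of these data known.

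Of 6 tested E and A cyclins and CDC25 phosphatases 4 rose and none fell, beside 23.8% of all tested genes called. Ccne1, the cyclin that activates Cdk2 late in G1, was at 0.89 ± 0.51 CPM in aged sham against 6.17 ± 4.03 CPM in aged bleo (log2 fold change 2.79, SE 0.58, FDR 0.00671). Ccna2, the cyclin of S phase, was at 6.72 ± 2.19 and 32.2 ± 22.9 CPM (log2 fold change 2.26, SE 0.55, FDR 0.0134). Cdc25c, a phosphatase of mitotic entry, was at 0.20 ± 0.25 and 3.15 ± 2.69 CPM (log2 fold change 3.95, SE 0.99, FDR 0.0150). Aged sham 2 to 4 had only 0.103, 0.0779 and 0.0403 CPM of Cdc25c. Aged sham 4 was under its floor of 0.0605 CPM, so the size of this fold change is uncertain. Cdc25c was not tested when at least 10 counts were required in every library. Ccne1 libraries did not overlap between the groups, whereas those of Ccna2 and Cdc25c did, again through aged sham 1 and aged bleo 2. None of the 3 genes of the CDK-activating kinase was called, and Cdk7, its catalytic subunit, had a log2 fold change of 0.28 (FDR 0.0147).

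Of 7 CDK inhibitors 3 rose, 1 fell and 3 were not called, beside 23.8% of all tested genes called. The risers were all INK4 inhibitors, which bind CDK4 and CDK6. Cdkn2c was at 6.80 ± 0.69 CPM in aged sham against 27.1 ± 8.21 CPM in aged bleo (log2 fold change 1.99, SE 0.23, FDR 3.84e-04). Cdkn2a, the locus of p16 and p19ARF, whose products gene-level counts do not separate, was at 1.56 ± 0.80 and 7.64 ± 1.52 CPM (log2 fold change 2.29, SE 0.35, FDR 0.00179). Cdkn2b was at 3.06 ± 0.63 and 8.88 ± 0.64 CPM (log2 fold change 1.54, SE 0.15, FDR 1.47e-04). Every aged bleo library was above every aged sham library for these 3 genes. Cdkn1c, the CIP/KIP inhibitor p57, fell from 45.7 ± 7.58 to 15.3 ± 6.17 CPM (log2 fold change -1.58, SE 0.28, FDR 0.00359). The CIP/KIP genes Cdkn1a and Cdkn1b had log2 fold changes of -0.05 (FDR 0.731) and -0.06 (FDR 0.592), and that of Cdkn2d was 0.04 (FDR 0.865).

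Of 10 E2F and DP genes 3 rose and none fell, close to the 23.8% of all tested genes that were called. E2f3, an activator E2F, was at 9.89 ± 1.19 CPM in aged sham against 22.7 ± 3.44 CPM in aged bleo (log2 fold change 1.20, SE 0.14, FDR 3.41e-04). The repressor genes E2f8 and E2f7, which are themselves made in S phase, had log2 fold changes of 2.95 (SE 0.68, FDR 0.0106) and 2.15 (SE 0.65, FDR 0.0301), at 4.96 ± 3.21 and 3.92 ± 2.72 CPM in aged bleo. E2f7 was no longer called without aged sham 4 and aged bleo 4. E2f1 had 15.9 ± 0.71 and 17.7 ± 4.42 CPM (log2 fold change 0.15, FDR 0.506), and E2f4, the usual partner of p130, 40.7 ± 2.48 and 38.7 ± 2.24 CPM (log2 fold change -0.07, FDR 0.422). The MuvB complex joins p130 to silence cell cycle genes in resting cells. Of 7 genes listed for it only Mybl2 was called, beside 23.8% of all tested genes. This S phase partner of MuvB had a log2 fold change of 2.71 (SE 0.65, FDR 0.0121).

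Of 14 S phase genes that E2F factors control 10 rose and none fell, with a median log2 fold change of 0.96. The libraries of the groups overlapped for most of these 10, Rrm2, Mcm5 and Mcm6 included. Summed over the 14 genes, the level was 190.5 to 251.7 CPM in aged sham and 202.5 to 542 CPM in aged bleo. Aged bleo 2 lay inside the aged sham range and below aged sham 1. Over all tested genes 12.3% were called higher and 11.5% lower. Rrm2, a subunit of the enzyme that makes deoxyribonucleotides, was at 4.76 ± 1.94 CPM in aged sham against 25.2 ± 19.1 CPM in aged bleo (log2 fold change 2.40, SE 0.61, FDR 0.0159). Mcm5 and Mcm6, subunits of the replicative helicase, had log2 fold changes of 1.82 (SE 0.50, FDR 0.0207) and 1.74 (SE 0.57, FDR 0.0418). Mcm6 was at 15.7 CPM in aged sham 1 and at 3.76, 4.69 and 5.85 CPM in aged sham 2 to 4, and it was no longer called without any 1 of aged sham 2, 3 or 4. The 4 genes that were not called included Pcna (log2 fold change 0.16, FDR 0.495), which was at 75.0 and 61.8 CPM in aged bleo 4 and 5 and at 43.4 to 44.7 CPM in the other aged bleo libraries.

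Around Myc, 1 of 10 tested relatives and partners was called, beside 23.8% of all tested genes. Mxd3, a MAX partner that opposes MYC and is made in S phase, was at 2.47 ± 0.24 CPM in aged sham against 6.19 ± 3.19 CPM in aged bleo (log2 fold change 1.33, SE 0.36, FDR 0.0199). Max was at 56.2 ± 3.62 and 52.8 ± 3.12 CPM (log2 fold change -0.09, FDR 0.321), and Mycn at 0.52 ± 0.19 and 0.66 ± 0.12 CPM (log2 fold change 0.34, FDR 0.359). Of 8 genes of cyclin and Myc turnover only Skp2, a subunit of an SCF ubiquitin ligase, was called (log2 fold change 0.83, SE 0.26, FDR 0.0364). Skp2 was not called without aged sham 4 and aged bleo 4. This 1 of 8 also stands beside 23.8% of all tested genes.

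Of 12 genes of ribosome making and growth that MYC is known to drive, 2 rose, 1 fell and 9 were not called, with a median log2 fold change of 0.17. The 3 called genes are close to the share over all genes (23.8%). Odc1, the first enzyme of polyamine synthesis, was at 58.6 ± 4.97 CPM in aged sham against 103 ± 18.8 CPM in aged bleo (log2 fold change 0.82, SE 0.14, FDR 0.00260). Nop58, a protein of the box C/D snoRNPs, fell from 120.5 ± 6.00 to 61.5 ± 8.20 CPM (log2 fold change -0.97, SE 0.10, FDR 2.13e-04). Npm1, the nucleolar protein nucleophosmin, had a log2 fold change of 0.63 (SE 0.25, FDR 0.0823), and it was not called without any 1 of aged sham 1 to 4, aged bleo 4 or aged bleo 5.

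**Figure D5:**
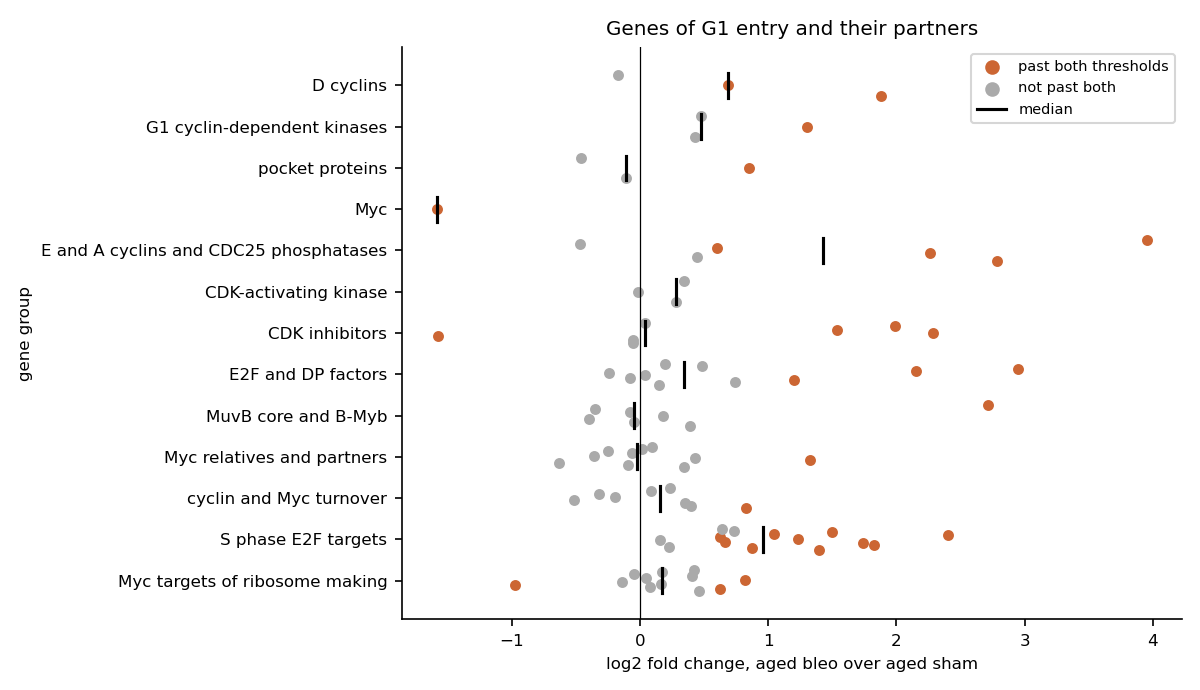
Log2 fold change of aged bleo over aged sham (horizontal axis) for each tested gene of the named groups (rows), with orange points past both thresholds and black lines for group medians. The S phase targets lie to the right with a median of 0.96, the CDK inhibitors spread from -1.58 to 2.29, and Myc lies apart from the genes of ribosome making, whose median is 0.17.

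Immediate early genes, which are induced within minutes by growth factors and also by tissue handling, were lower in aged bleo as Myc was. Of 10 such genes 8 fell and none rose, with a median log2 fold change of -0.85. Over all tested genes 11.5% were called lower. Their summed level was 14436 to 18643 CPM in aged sham and 5547 to 11741 CPM in aged bleo. Among the aged bleo libraries it was highest in aged bleo 2 and lowest in aged bleo 4, as for Myc. Egr1 was at 4284 ± 315 CPM in aged sham against 2036 ± 810 CPM in aged bleo (log2 fold change -1.07, SE 0.28, FDR 0.0167), and Atf3 at 893 ± 176 and 198 ± 92.0 CPM (log2 fold change -2.17, SE 0.33, FDR 0.00177). The part of this list in the difference of Myc was not tested.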

How the data were processed

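The libraries, prepared from polyadenylated RNA of sorted lung fibroblasts, were grouped by the condition in their labels (4 aged sham, 5 aged bleo). The authors deposited 1 table with the counts of reads per gene, without normalization, together with FPKM, which the authors scaled to length and library size. The submitters' processing notes name STAR 2.5.2b, Subread and featureCounts. The strand setting is not given in the sources used here. Gene positions were taken as GRCm38, since 78.8% of shared identifiers had the start and end of GENCODE M21.

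Counts of genes averaging 25 or more reads were analysed with edgeR 4.0.16 (TMM normalization, glmQLFit and glmQLFTest, no covariate) in R 4.3.3, and p-values were adjusted by the Benjamini-Hochberg procedure over 16877 genes (FDR). A gene was called at an FDR below 0.10 together with a fold change above 1.5. These are the thresholds of the study, whose own test was a moderated one. Standard errors came from the fold change and its test. Shares and orders between genes used FPKM. Likeness of profiles was the root mean square difference of centred log2 CPM (prior count 2).

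The members, the pathway and marker lists and the rule for named genes were chosen with earlier results of these data known. Named were all members, up to 3 called genes per pathway list with the largest change and a mean of at least 1 CPM, and the 3 nearest profiles of each called member, of which 1 is not reported here. Cdkn2b, Cdkn1a, Cdkn1b, Cdkn2d, Cdk7, E2f1, E2f4, Pcna, Max, Mycn, Egr1 and Atf3 were added after their values were seen. The tests were tried on simulated counts first. Each library was taken as 1 mouse, as the study describes its data points. Limits from counts cover counting error only. Chi-square per degree of freedom between libraries of a group was 28.7 to 412, where sampling noise alone gives about 1, so none was a duplicate. Further marker lists gave 0 called of 6 neutrophil genes, 4 lower of 8 lymphocyte genes, and 1 higher and 1 lower of 6 endothelial genes. They gave 1 higher of 7 epithelial genes, 1 higher and 2 lower of 7 smooth muscle and pericyte genes, and 0 of 4 erythroid genes. The fibroblast identity genes were 4 higher and 2 lower of 8, and the pan-leukocyte genes 1 higher of 7. All marker counts, that of the macrophage genes included, stand beside 12.3% of all tested genes called higher and 11.5% called lower.

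Alternatives were RLE normalization, library size only, no filter on low counts, at least 10 counts in every library, DESeq2 1.42.0, limma 3.58.1 (on log2 CPM or on log2 FPKM with 0.1 or 1 added), a robust fit, replicate numbers as a block, the ending of the library name as a term, and each library left out in turn. Leaving out the 2 libraries richest in leukocyte transcripts was added after seeing the data.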

Additional observations from a re-analysis of the deposited data

Results flagged for a closer look

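In 10 of the 84 group tests over 42 named genes, 1 library lay far from the others by Dixon's criterion, which chance meets in about 1 in 20 groups. Every time it was aged sham 1, at the top of the aged sham libraries. It had 52.2 CPM of Ccnd1, 13.0 CPM of Cdk6 and 209 CPM of Myc among the members. In the pathway lists it had 0.565 CPM of Cdc25c and 9.92 CPM of Mcm5. Among the genes chosen for profiles like those of the members, it had 0.581 CPM of Ankle1, 5.59 CPM of Vash2, 3.20 CPM of Kif20b, 0.872 CPM of Gm13966 and 17.3 CPM of Apex1. The last 5 genes were picked for following a member across these libraries, so they are not separate occurrences. Over all 16877 tested genes, aged sham 1 was the high library in 401 (2.38%), and aged bleo 4 was the high library of its group in 697 (4.13%). In Ccnd1 and Cdk6, aged sham 1 was nearest to the aged bleo libraries, whereas in Myc it was the farthest from them. What set aged sham 1 apart was not tested. Left out, it gave log2 fold changes of 2.50 for Ccnd1, 1.77 for Cdk6 and -1.48 for Myc.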

How the results depend on the processing

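Of 210 fold changes of members under the alternatives, 204 kept their direction and their call by both thresholds together. The FDR alone crossed 0.10 in 18 of the 210, in Cdk2 (10), Cdk4 (4), Ccnd3 (2) and Rb1 (2). With log2(FPKM + 1), which shrinks low genes, 1785 genes were called in place of 4022 (960 higher, 825 lower), 15 pathway genes in place of 27 (13 higher), and Rbl1 was not called (0.40). With the name ending as a term, 6394 genes were called (3153 higher, 3241 lower), 8 members (2 lower) and 43 pathway genes (39 higher, 4 lower), Cdk4, Cdk2 and Rbl2 passed the fold threshold (0.82, 0.90 and -0.70), and Ccnd3 turned to 0.071. Without the 2 leukocyte-rich libraries, 4 pathway genes were lower. The cause of these changes was not tested. With each library left out in turn, 3525 to 4597 genes, 4 to 5 members and 21 to 29 pathway genes were called, and Ccnd2 ranged from 0.58 (without aged sham 2, not called) to 0.77. Of 670 fold changes of other named genes, 631 kept their call and 39 lost it.

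Deviations of same-numbered libraries correlated at 0.09, 0.06, -0.13 and 0.33. The highest was that of aged sham 4 with aged bleo 4, the libraries richest in leukocyte transcripts. Such correlations cannot settle whether mice were paired. With the replicate number as a block, 3536 genes, 5 members and 21 pathway genes were called, and Cdk4 and Cdk2 had an FDR of 0.143 and 0.216. At 263 or more reads per library, spread between libraries and not depth limited the members.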
